A study of Mus musculus with 5 samples.

Results

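The forkhead genes were followed in CXCL12-abundant reticular cells of mouse bone marrow, as the 32 protein-coding rows of the deposited counts whose mouse symbol is Fox, a lower-case letter and digits, out of 17087 protein-coding rows and 44 forkhead genes in the annotation. The libraries came from cells positive for GFP and tdTomato that were sorted from femurs at postnatal day 21. In the Dlx5 group (3 libraries), mice carried Cxcl12 GFP/+, Dlx5 CreER/+ and R26R tdTomato/+, and in the Fgfr3 group (2 libraries) they carried Cxcl12 GFP/+, Fgfr3-iCreER and R26R tdTomato/+. Both groups received a single pulse of tamoxifen at embryonic day 12.5, so that tdTomato marked descendants of the fetal cells in which the Dlx5 or the Fgfr3 promoter then drove the recombinase, perichondrial cells in the former and chondrocytes in the latter. Every library was made from pooled littermates, and the sort selected on the activity of Cxcl12 itself. The comparison asked how the transcriptomes of reticular cells of these 2 origins differ. Total counts were 32563758, 22035650 and 27135553 in Dlx5 replicates 1, 2 and 3, and 56355203 and 58166285 in Fgfr3 replicates 2 and 3. According to the methods, Dlx5 libraries were read with longer paired-end reads and Fgfr3 libraries with shorter single-end reads on another instrument, whereas the labels name the same instrument for all libraries. Lineage and sequencing therefore cannot be told apart in any difference given here.

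Forkhead proteins bind DNA through a winged-helix domain and fall into lettered classes with separate roles. Foxc1 maintains Cxcl12-rich stroma as a niche for blood stem and progenitor cells, and Foxc2 is its close relative. Foxo proteins are held in the cytoplasm when insulin and growth factor signalling through Akt is active and otherwise switch on genes of cell cycle arrest, stress resistance and metabolism, whereas Foxm1 drives genes of mitosis in dividing cells.

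The sorted cells were first checked against their markers. Cxcl12 was present at 22405, 22351 and 21252 normalized CPM (counts scaled to a common library size with TMM factors) in the Dlx5 libraries and at 8068 and 5802 CPM in the Fgfr3 libraries. All 8 stromal markers were detected in every library, and their summed level was 33382, 35271 and 34232 CPM in the Dlx5 libraries and 13889 and 8948 CPM in the Fgfr3 libraries. Of these 8, 5 (62.5%) were called higher in Dlx5 cells and none in Fgfr3 cells. Of all genes tested, 13.1% were called higher in Dlx5 and 16.4% in Fgfr3. Markers of blood cells were present in all libraries. The 10 leukocyte markers summed to 462, 407 and 369 CPM in the Dlx5 libraries and to 1189 and 2523 CPM in the Fgfr3 libraries, with Lcp1 and Coro1a the most abundant and none at 0 in any library, and 10 of 10 were called higher in Fgfr3. The 8 neutrophil markers summed to 2537, 3054 and 2439 CPM against 6908 and 17003 CPM, led by Ngp, or by Mpo in Dlx5 replicate 1, and 8 of 8 were called higher in Fgfr3. Macrophage markers summed to 60.4, 81.9 and 51.7 CPM against 137 and 188 CPM, led by C1qb in the Dlx5 libraries and by Csf1r in the Fgfr3 libraries, with 4 of the 5 tested called higher in Fgfr3, of which Cd68 passed the filter on low counts (10 CPM in at least 2 libraries, from counts over the library total without TMM factors) through the Fgfr3 libraries alone, and Mrc1, below the filter, was at 9.46, 12.1 and 7.28 CPM against 6.03 and 3.42 CPM. B cell markers summed to 233, 98.6 and 93.2 CPM against 237 and 426 CPM, led by Cd79a, with 2 of the 5 tested called higher in Fgfr3, of which Igll1 passed through the Fgfr3 libraries alone. T cell markers stayed between 2.9 and 11.9 CPM in sum, none passed the filter, and 1, 3 and 2 of the 7 were at 0 counts in Dlx5 replicates 1, 2 and 3, 2 in Fgfr3 replicate 2 and 0 in Fgfr3 replicate 3. Erythroid markers, led by Hbb-bs, summed to 27404, 13368 and 17721 CPM against 8429 and 12907 CPM, and 1 of 6 (16.7%) was called higher in Dlx5, near the share of all genes. Endothelial markers, led by Pecam1, summed to between 18.8 and 42.2 CPM, with 0 of the 1 tested called. Mural markers, led by Rgs5, summed to 256, 73.8 and 79.3 CPM against 124 and 114 CPM, with 3 of the 4 tested called higher in Fgfr3. Cspg4 and Tagln, among these 3, passed the filter through the Fgfr3 libraries alone, and Myh11, below it, was at 5.71, 2.92 and 7.83 CPM against 0.861 and 0.489 CPM. Osteoblast markers, led by Col1a1, or by Alpl in Fgfr3 replicate 2, summed to 5335, 4076 and 3783 CPM against 7243 and 9706 CPM. Of these 8, 4 (50%) were called higher in Fgfr3 and 1 (12.5%) in Dlx5, the latter near the share of all genes. Chondrocyte markers separated the Fgfr3 libraries from each other, summing to 137, 127 and 129 CPM in the Dlx5 libraries, 3153 CPM in Fgfr3 replicate 2 and 459 CPM in Fgfr3 replicate 3. Col2a1 was the most abundant of these in the Fgfr3 libraries, at 2598 and 343 CPM, and Col9a1 and Matn1 were at 0 counts in all Dlx5 libraries. The Dlx5 sums were mostly Sox9, at 124, 117 and 122 CPM against 96.8 and 53.7 CPM in the Fgfr3 libraries, which was not called. Of the 3 tested, Col2a1 and Col11a2 were called higher in Fgfr3, and both passed the filter through those libraries alone. In bulk libraries, a smaller share of cells of a type and less RNA per cell cannot be told apart.

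**Figure D1:**
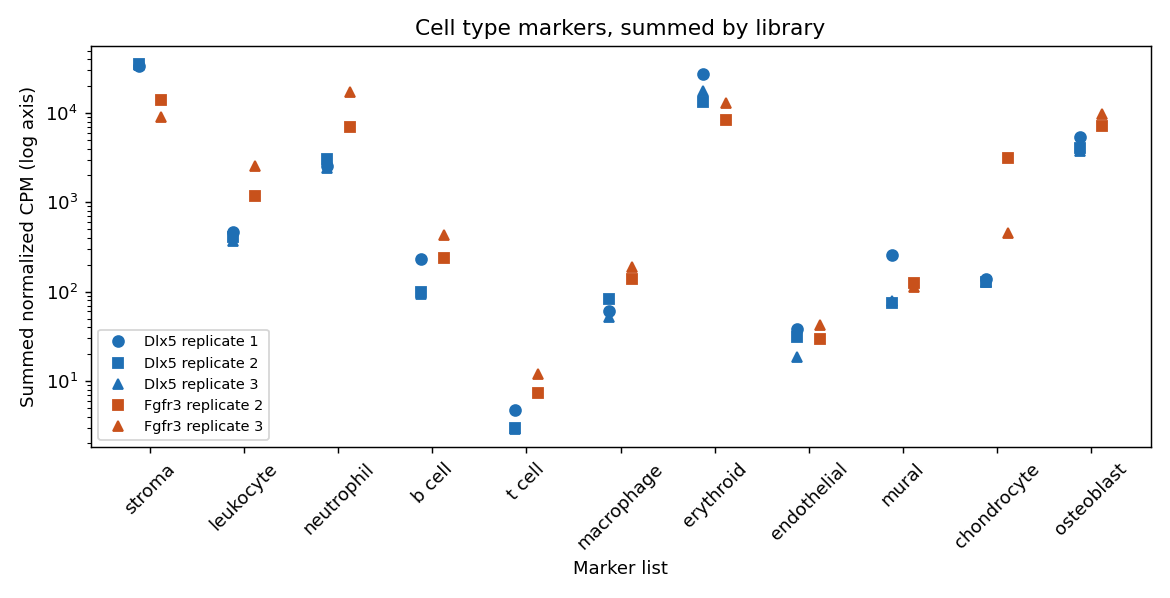
Summed normalized CPM of each marker list (log axis) in each of the 5 libraries, with colour for the group and symbol for the replicate. The neutrophil sum is 6908 and 17003 CPM in the Fgfr3 libraries and at most 3054 CPM in the Dlx5 libraries, and the chondrocyte sum is 3153 CPM in Fgfr3 replicate 2.

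Genes were tested where they reached 10 CPM, before TMM factors, in at least 2 libraries, with edgeR's quasi-likelihood test, and called where the Benjamini-Hochberg adjusted p was under 0.05 and the log2 fold change was beyond 1 in either direction. Of the 32 forkhead genes, 14 passed this filter and 8 of the 14 were called, 57.1%, against 29.5% of all 10088 genes tested. Higher levels in Fgfr3 cells were called for 6 members (42.9%, against 16.4% of all genes), namely Foxc1, Foxm1, Foxo1, Foxk2, Foxj2 and Foxp4. Higher levels in Dlx5 cells were called for 2 members (14.3%, against 13.1% of all genes), Foxo3 and Foxp2, a share near that of all genes. Foxm1 and Foxp4 passed the filter through the Fgfr3 libraries alone, so their difference was partly set by the filter, and the share called is no evidence about the family. The median log2 fold change, Fgfr3 over Dlx5, was 0.52 over the 14 members and 0.01 over all genes tested. Groups did not overlap in 13 of the 14 members (92.9%), 5 of which were not called, against 68.9% of all genes tested. For Foxm1 and Foxp4 the lack of overlap was largely set by the filter, so this share is no evidence about the family either. Summed over all 32 members, forkhead transcripts made up 706, 832 and 904 CPM in the Dlx5 libraries and 1019 and 1004 CPM in the Fgfr3 libraries.

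**Figure D2:**
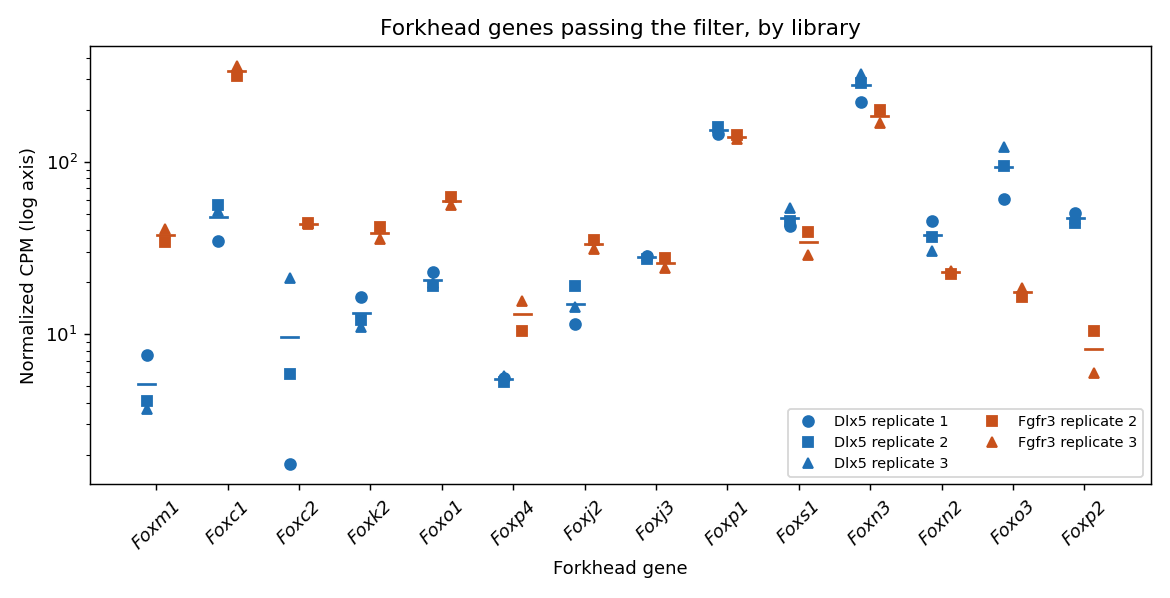
Normalized CPM (log axis) of the 14 forkhead genes that passed the filter, ordered by log2 fold change, with a point for each library and a bar for each group mean. Foxc1 lies at 315 and 359 CPM in the Fgfr3 libraries and at 34.9 to 56.2 CPM in the Dlx5 libraries, whereas Foxo3 and Foxp2 lie lower in the Fgfr3 libraries.

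Foxc1 (ENSMUSG00000050295), the niche factor of Cxcl12-rich stroma, is a single-exon gene on the plus strand of mouse chromosome 13, from 31806633 to 31812476 in GRCm38. It measured 34.9, 56.2 and 51.8 CPM in Dlx5 replicates 1, 2 and 3, from 1070, 1194 and 1303 counts, and 315 and 359 CPM in Fgfr3 replicates 2 and 3, from 19378 and 22744 counts. Both Fgfr3 libraries were above every Dlx5 library by a wide margin. The level was 7.08-fold higher in Fgfr3 cells, a log2 fold change of 2.82 with a standard error of 0.22 (edgeR's quasi-likelihood test, adjusted p = 0.000134, 3 against 2 libraries). Per kilobase of exon, Foxc1 had the highest level of all forkhead genes in Fgfr3 cells, 57.6 ± 5.31 CPM per kb (SD, n = 2), and was the fifth in Dlx5 cells at 8.15 ± 1.93 CPM per kb (SD, n = 3). In the list of 12 niche genes, of which all were tested, 7 were called higher in Dlx5 (58.3%, against 13.1% of all genes) and 1 in Fgfr3 (8.33%, against 16.4%), with a median log2 fold change of -1.52. As 6 of the 12 are also stromal markers, this count in part repeats the marker check, and the leukocyte and neutrophil markers were higher in the libraries where these genes were lower, whose part was not tested. Kitl, the ligand of the Kit receptor of blood progenitors, was at 1923, 2463 and 2240 CPM in Dlx5 cells and 475 and 158 CPM in Fgfr3 cells, with a log2 fold change of -2.80. Il7, a cytokine of lymphoid progenitors, measured 447, 576 and 641 CPM against 169 and 69.6 CPM, a log2 fold change of -2.22. The adhesion molecule Vcam1 had a log2 fold change of -2.04, from 3874, 4615 and 4857 CPM to 1454 and 714 CPM. Ebf3, a transcription factor of these stromal cells, measured 164, 225 and 199 CPM against 67.8 and 43.3 CPM, a log2 fold change of -1.82. Adipoq, Cxcl12 and Ebf1 were the other members called higher in Dlx5. Cebpb, a factor of adipocyte and myeloid differentiation, was the exception, at 2.25, 4.33 and 5.89 CPM in Dlx5 cells and 796 and 845 CPM in Fgfr3 cells, a log2 fold change of 7.63, and passed the filter through the Fgfr3 libraries alone. Csf1 and Lepr had log2 fold changes of -0.80 and -0.94, with adjusted p of 0.00615 and 0.0383 by edgeR's quasi-likelihood test, and stayed under the fold threshold. Pparg and Cebpa were not called either, with adjusted p of 0.128 and 0.715 by the same test.

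Foxc1 lies with Foxq1 and Foxf2 in a cluster on chromosome 13, with start sites 69.7 and 250.5 kb from that of Foxq1 for Foxf2 and Foxc1. Foxf2, a factor of mesenchyme, was below the filter at 9, 8 and 6 counts in the Dlx5 libraries and 170 and 142 counts in the Fgfr3 libraries. In the fit that kept genes with at least 1 CPM in at least 2 libraries, it was called higher in Fgfr3 cells, with a log2 fold change of 3.02 and an adjusted p of 0.0041 by edgeR's quasi-likelihood test. In that fit 18 members were tested, of which 8 were called higher in Fgfr3 and 3 in Dlx5, against 16.6% and 12.9% of all 13225 genes in that fit. The 3 calls gained there, Foxf2, Foxd2 and Foxo4, were of genes that reached 1 CPM only in the group where they were high, so these differences were partly set by the filter. Foxq1 had 4, 4 and 4 counts against 9 and 86 counts, with the excess in Fgfr3 replicate 3 alone, and 66.07% of its exon bases overlap a gene on the other strand, A530084C06Rik, from which its reads could not be separated if strand was not used. The row of A530084C06Rik held 0, 0 and 0 counts against 14 and 0 counts. Gmds, the next protein-coding gene after Foxc1, lay at 53.3, 43.9 and 47.6 CPM against 52.4 and 46.9 CPM and was not called, with a log2 fold change of 0.04 and an adjusted p of 0.847 by the same test. Upstream sequences of both clustered members are shown because these neighbours were high in the same libraries. They end before the first annotated transcribed base of the gene itself and come from RefSeq with build GRCm38.p6, in which 18 of the 32 members have an entry. The Foxf2 window overlaps 1700018A04Rik, a non-coding gene on the other strand whose annotated span ends at 31625792. Foxc1 is shown over chr13:31806396-31806632 and Foxf2 over chr13:31625566-31625815, both on the plus strand, with capitals marking GGGCGG, the GC box, or its reverse complement CCGCCC.
Foxc1: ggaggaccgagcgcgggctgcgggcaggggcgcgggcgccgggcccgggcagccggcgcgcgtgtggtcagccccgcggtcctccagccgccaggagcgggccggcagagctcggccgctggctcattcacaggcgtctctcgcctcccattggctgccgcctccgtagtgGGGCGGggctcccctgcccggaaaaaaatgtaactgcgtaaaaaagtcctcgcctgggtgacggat
Foxf2: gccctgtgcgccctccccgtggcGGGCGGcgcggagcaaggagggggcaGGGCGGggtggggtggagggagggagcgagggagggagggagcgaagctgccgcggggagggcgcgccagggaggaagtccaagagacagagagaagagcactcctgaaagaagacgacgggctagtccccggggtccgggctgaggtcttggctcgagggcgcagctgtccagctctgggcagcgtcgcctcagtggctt
Both windows are rich in G and C, 72.6% for Foxc1 and 71.6% for Foxf2, against medians of 51.9% and 52.4% over the first bases of all 32851 promoter entries cut to the same lengths. The Foxc1 window holds 29 CG dinucleotides and the Foxf2 window 21, against medians of 5 and 6. The GC box occurred 1 time in the Foxc1 window and 2 times in the Foxf2 window, and 30.9% and 32.7% of promoters of those lengths hold it on either strand. A forkhead core motif, GTAAACA or TGTTTAC, was not in these windows, and 3.02% and 3.17% of promoters hold it.

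Foxc2 and the neighbouring Foxf1 and Foxl1 form a like cluster on chromosome 8. Foxc2 measured 1.76, 5.89 and 21.1 CPM in Dlx5 replicates 1, 2 and 3 and 44 and 43.4 CPM in the Fgfr3 libraries. The groups did not overlap, but the Dlx5 libraries differed widely from each other, and the log2 fold change of 2.19 with a standard error of 0.81 missed the threshold (edgeR's quasi-likelihood test, adjusted p = 0.061). Without Dlx5 replicate 3, it was 3.53 with an adjusted p of 0.00293 by the same test, and Foxc2 was called; without any other single library it was not, and without Dlx5 replicate 1 the log2 fold change was 1.69. With the GC trend removed it was 1.52 (adjusted p = 0.135, edgeR). With the exact test, which the study names, Foxc2 was also called (adjusted p = 0.0162, edgeR). The same held when library size alone set the scale (2.41, adjusted p = 0.0385, edgeR) and with a replicate block (1.94, adjusted p = 0.0231, edgeR), although the libraries are not paired. Foxl1 had 4, 9 and 1 counts against 4 and 35 counts, and Foxf1 at most 1 count in any library. Mthfsd, which lies between Foxf1 and Foxc2, was not called, with a log2 fold change of 0.45 (edgeR's quasi-likelihood test, adjusted p = 0.158). Gm20388, a gene model whose annotated span covers the whole cluster, measured 35.6, 32.3 and 12.4 CPM against 77 and 92.3 CPM and was called higher in Fgfr3 (log2 fold change 1.66, adjusted p = 0.0129, same test).

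**Figure D3:**
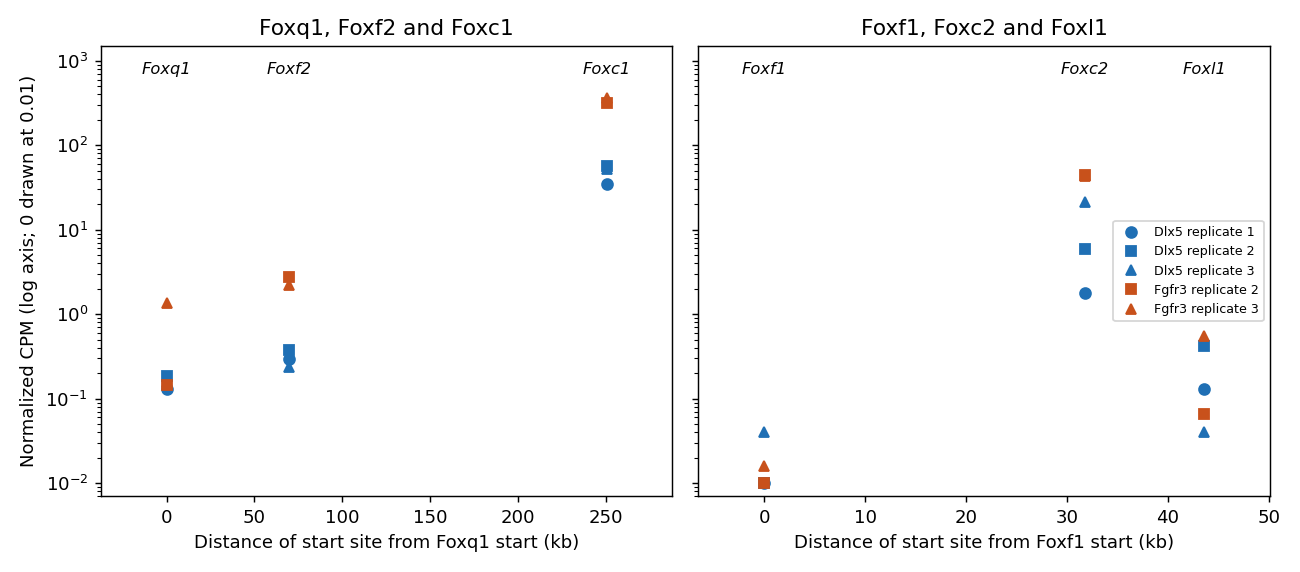
Normalized CPM (log axis, 0 drawn at 0.01) of the forkhead genes of both clusters against the distance of each start site from that of the first member in kb, with colour for the group and symbol for the replicate. Foxc1, Foxf2 and Foxc2 lie higher in both Fgfr3 libraries than in any Dlx5 library, and Foxq1 lies higher only in Fgfr3 replicate 3.

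Foxo1 and Foxo3 differed between the lineages in opposite directions. Foxo1, which acts in insulin signalling, osteoblasts and lymphocytes, measured 23, 18.9 and 19.8 CPM in the Dlx5 libraries and 62.2 and 55.7 CPM in the Fgfr3 libraries. The groups did not overlap, and the level was 2.86-fold higher in Fgfr3 cells, a log2 fold change of 1.52 with a standard error of 0.16 (edgeR's quasi-likelihood test, adjusted p = 0.000418). Foxo3, a factor of quiescence and resistance to oxidative stress, measured 60.8, 94.7 and 122 CPM in the Dlx5 libraries and 16.5 and 18.4 CPM in the Fgfr3 libraries. Every Dlx5 library was above both Fgfr3 libraries, and the log2 fold change was -2.41 with a standard error of 0.31 (edgeR's quasi-likelihood test, adjusted p = 0.000945). Foxo4 was below the filter, at 83, 42 and 55 counts against 31 and 13 counts, and was called higher in Dlx5 in the fit with at least 1 CPM, with a log2 fold change of -2.71 (adjusted p = 0.0125, edgeR's quasi-likelihood test). Foxo6 had no count in any Dlx5 library and 2 and 20 counts in the Fgfr3 libraries, at least 4.52-fold higher when the Dlx5 group is set to a floor of 3 counts over the group, a bound that covers counting error only and rests on Fgfr3 replicate 3, since replicate 2 alone, at 0.0325 CPM, lay under that floor of 0.0389 CPM. Per kilobase of exon, Foxo3 stood at 12.2 ± 4.07 CPM per kb in Dlx5 cells (SD, n = 3) and Foxo1 at 2.37 ± 0.245 CPM per kb, whereas in Fgfr3 cells Foxo3 stood at 2.31 ± 0.173 CPM per kb (SD, n = 2) and Foxo1 at 6.8 ± 0.53 CPM per kb, so that the order of the pair was inverted. Their upstream sequences are shown as the pair with opposite differences, for Foxo1 over chr3:52268087-52268335 on the plus strand and for Foxo3 over chr10:42276756-42276945 on the minus strand, with capitals as above.
Foxo1: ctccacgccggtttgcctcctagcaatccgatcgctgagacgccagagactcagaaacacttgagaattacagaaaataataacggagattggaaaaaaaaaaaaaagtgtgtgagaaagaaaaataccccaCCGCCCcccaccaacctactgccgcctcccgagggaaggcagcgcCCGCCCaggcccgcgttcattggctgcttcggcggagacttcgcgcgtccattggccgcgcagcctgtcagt
Foxo3: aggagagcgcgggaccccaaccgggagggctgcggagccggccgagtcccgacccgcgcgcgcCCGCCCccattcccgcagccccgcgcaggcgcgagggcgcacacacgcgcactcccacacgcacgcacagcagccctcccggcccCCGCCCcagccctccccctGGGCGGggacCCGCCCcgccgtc
The Foxo1 window is 55.8% G and C with 20 CG dinucleotides and 2 GC boxes, and the shorter Foxo3 window is 81.6% G and C with 28 CG dinucleotides and 4 GC boxes. Of all promoters, 32.6% and 22.8% hold a GC box over these lengths. The forkhead core motif was not in either window, and 3.15% and 2.49% of promoters hold it.

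Of the 21 listed targets of Foxo proteins, 20 were tested, 2 were called higher in Fgfr3 (10%, against 16.4% of all genes) and 5 in Dlx5 (25%, against 13.1%), with a median log2 fold change of -0.28. Cdkn1b passed the filter through the Dlx5 libraries alone. Gadd45a, a gene of DNA damage and growth arrest, measured 12.9, 8.85 and 18.7 CPM in Dlx5 cells and 73.7 and 87.1 CPM in Fgfr3 cells, a log2 fold change of 2.57. Ccng2, an unconventional cyclin, measured 43.5, 45.4 and 44.3 CPM against 238 and 209 CPM, a log2 fold change of 2.33. Cdkn1b, which encodes the p27 inhibitor of cyclin-dependent kinases, measured 20.2, 21.9 and 17.7 CPM against 5.56 and 5.44 CPM, a log2 fold change of -1.86. Sesn3 had a log2 fold change of -1.57, Fbxo32 of -1.42 and the mitochondrial superoxide dismutase gene Sod2 of -1.25, and Insr was also called higher in Dlx5. Of the 8 targets described in lymphoid cells, 6 were tested and 4 were called higher in Fgfr3 (66.7%, against 16.4% of all genes), with a median log2 fold change of 1.73. Rag1 and Rag2 lay below the filter and are in neither the count nor the median, and Il7r passed it through the Fgfr3 libraries alone. Klf2 measured 28.5, 30.2 and 53.5 CPM against 138 and 204 CPM. Il7r measured 2.61, 2.26 and 2.86 CPM against 11.1 and 9.77 CPM, and Blnk was also called. The leukocyte markers given above were higher in the same libraries, and their part in the levels of Foxo1 and of these targets was not tested.

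Of the 22 genes listed for the control of Foxo proteins, 21 were tested, 5 were called higher in Fgfr3 (23.8%, against 16.4% of all genes) and 3 in Dlx5 (14.3%, against 13.1%), shares near those of all genes, with a median log2 fold change of 0.28. Pik3cb and Skp2 passed the filter through the Fgfr3 libraries alone. The kinase gene Akt1 measured 41.1, 40.9 and 43 CPM in Dlx5 cells and 349 and 472 CPM in Fgfr3 cells, a log2 fold change of 3.30. Pik3cb, a catalytic subunit gene of the kinase, had 5, 1 and 6 counts in the Dlx5 libraries and 712 and 1377 counts in the Fgfr3 libraries. Skp2 had a log2 fold change of 1.32, and Ywhah was also called higher in Fgfr3. The receptor gene Igf1r measured 77.6, 91.3 and 95.1 CPM in Dlx5 cells and 24.4 and 19.2 CPM in Fgfr3 cells, a log2 fold change of -2.01. The adaptor gene Irs1 and the regulatory subunit gene Pik3r1 differed by -1.84 and -1.43 on the log2 scale.

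Foxm1 measured 7.6, 4.1 and 3.66 CPM in the Dlx5 libraries and 34.4 and 40.8 CPM in the Fgfr3 libraries. The log2 fold change was 2.87 with a standard error of 0.33 (edgeR's quasi-likelihood test, adjusted p = 0.000652). The groups did not overlap, but Foxm1 passed the filter through the Fgfr3 libraries alone, so this was largely set by the filter. Of 19 mitotic genes known as targets of Foxm1, all were tested, 15 were called higher in Fgfr3 (78.9%, against 16.4% of all genes) and none in Dlx5 (against 13.1%), with a median log2 fold change of 1.86. Bub1 passed the filter through the Fgfr3 libraries alone. The checkpoint kinase genes Bub1 and Bub1b had log2 fold changes of 2.48 and 2.40, the phosphatase gene Cdc25b of 2.28 and the kinase gene Plk1 of 2.15. Bub1b, for example, measured 10.7, 12.5 and 10.9 CPM in the Dlx5 libraries and 57.1 and 63 CPM in the Fgfr3 libraries. The other genes called were Ccnb1, Ccnb2, Aurka, Aurkb, Birc5, Nek2, Cenpa, Kif20a, Cdc20, Cdk1 and Ccna2. Mki67, the common marker of dividing cells, was not called, at 102, 54.5 and 63.1 CPM against 96.2 and 89.5 CPM (log2 fold change 0.34). Dividing blood cells also express these genes, and the part of the neutrophil and leukocyte markers, which were higher in the same libraries, was not tested. The sort on GFP and tdTomato was aimed at stromal cells, and markers of blood cells were present in all libraries.

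**Figure D4:**
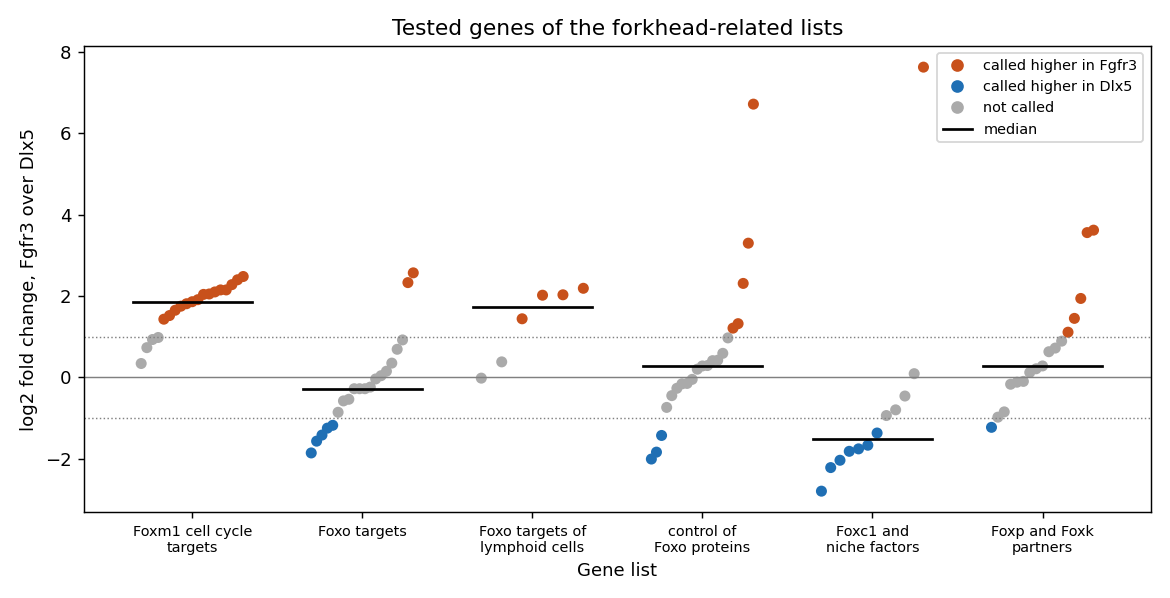
Log2 fold change, Fgfr3 over Dlx5, of each tested gene of the 6 forkhead-related lists, coloured by call, with a line at the median of each list. The Foxm1 targets have a median of 1.86 with 15 of 19 called higher in Fgfr3, and the niche genes a median of -1.52 with 7 of 12 called higher in Dlx5.

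The Foxp genes, transcriptional repressors, also differed among themselves. Foxp2 measured 50.2, 44.3 and 46.2 CPM in the Dlx5 libraries and 10.5 and 5.92 CPM in the Fgfr3 libraries. Every Dlx5 library was above both Fgfr3 libraries, and the log2 fold change was -2.51 with a standard error of 0.28 (edgeR's quasi-likelihood test, adjusted p = 0.00052). Foxp4 measured 5.58, 5.27 and 5.69 CPM in the Dlx5 libraries and 10.5 and 15.6 CPM in the Fgfr3 libraries, a log2 fold change of 1.24 with a standard error of 0.26 (adjusted p = 0.00737, same test). Foxp4 passed the filter through the Fgfr3 libraries alone, so its difference was partly set by the filter. Its call was lost when a trend on GC content was removed (0.30), when a trend on length was removed (0.96), in the test of a change beyond 2-fold (adjusted p = 0.297, edgeR) and, with the genes tested on all libraries, without Fgfr3 replicate 3 (0.93). Foxp1 was among the most abundant members, at 144, 159 and 157 CPM against 143 and 136 CPM, with a log2 fold change of -0.14 that was not called and that turned to 0.07 when library size alone set the scale.

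Foxk2, a repressor of autophagy and metabolic genes, measured 16.4, 12.1 and 11 CPM in the Dlx5 libraries and 41.7 and 35.4 CPM in the Fgfr3 libraries. The groups did not overlap, and the log2 fold change was 1.55 with a standard error of 0.22 (edgeR's quasi-likelihood test, adjusted p = 0.00146). Its paralog Foxk1 was below the filter at 275, 253 and 212 counts against 480 and 493 counts, and was not called at the lower filter (log2 fold change -0.35, adjusted p = 0.311, edgeR). Of the 18 partner genes of Foxp and Foxk proteins, 17 were tested, 5 were called higher in Fgfr3 (29.4%, against 16.4% of all genes) and 1 in Dlx5 (5.88%, against 13.1%), with a median log2 fold change of 0.28. The corepressor gene Ctbp1 measured 28.7, 36.7 and 36.4 CPM against 359 and 473 CPM, a log2 fold change of 3.62, and the deacetylase gene Hdac2 11.6, 12.3 and 18.3 CPM against 178 and 154 CPM, a log2 fold change of 3.56. Dvl1 had a log2 fold change of 1.94 and Gatad2a of 1.45, and Mta1 was also called higher in Fgfr3. Gatad2b, a relative of Gatad2a, was called higher in Dlx5, with a log2 fold change of -1.23.

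Among the remaining members, Foxj2 measured 11.5, 18.9 and 14.4 CPM in the Dlx5 libraries and 35.1 and 31.1 CPM in the Fgfr3 libraries, a log2 fold change of 1.15 with a standard error of 0.24 (edgeR's quasi-likelihood test, adjusted p = 0.00699). Its call was lost after removal of the GC trend (0.97), in the test beyond 2-fold (adjusted p = 0.435, edgeR) and without Dlx5 replicate 1 (0.99). It was also lost with a replicate block (1.00), although the libraries are not paired. Foxj3 measured 28.2, 27.4 and 28.3 CPM against 27.8 and 24.2 CPM and was the only tested member whose groups overlapped. Foxn2 and Foxn3 had log2 fold changes of -0.72 and -0.60, with adjusted p of 0.0241 and 0.041 by edgeR's quasi-likelihood test, and stayed under the fold threshold. With the length trend removed Foxn3 was at -0.11 (adjusted p = 0.622, edgeR), and when library size alone set the scale the adjusted p was 0.0761 for Foxn2 and 0.133 for Foxn3. Without single libraries, with the filter applied again, the adjusted p (edgeR) reached 0.103 for Foxn2 and 0.212 for Foxn3, and was above 0.05 without 3 of the 5 libraries for Foxn2 and without 4 of the 5 for Foxn3. Foxs1, a single-exon gene, stood at 36 ± 4.61 CPM per kb of exon in Dlx5 cells (SD, n = 3) and at 26 ± 5.63 CPM per kb in Fgfr3 cells (SD, n = 2), and was not called (log2 fold change -0.47, adjusted p = 0.0868, edgeR). This change was -0.91 with the GC trend removed (adjusted p = 0.0152, edgeR), -0.26 when library size alone set the scale, and, with the filter applied again, -0.63 without Fgfr3 replicate 2 (adjusted p = 0.0459, edgeR) and -0.20 without Fgfr3 replicate 3. Foxs1 had the highest level of any member in Dlx5 cells by exon length, but Foxn3 was also at 36 CPM per kb when divided by its longest transcript.

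**Figure D5:**
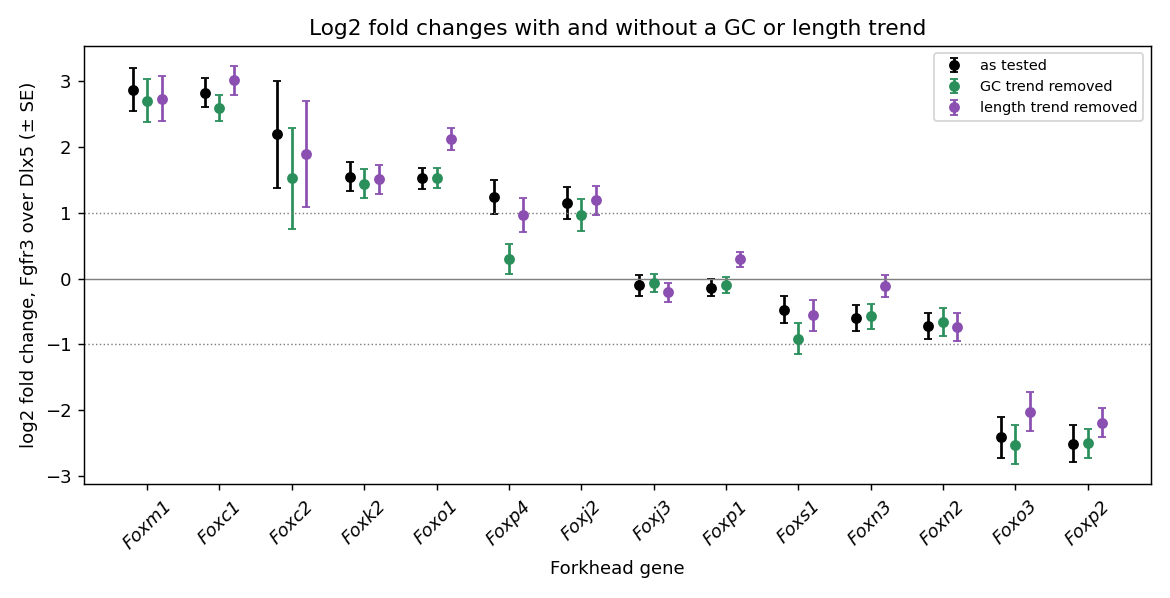
Log2 fold change, Fgfr3 over Dlx5, with its standard error, of the 14 tested forkhead genes as tested, with the GC trend taken out and with the length trend taken out, with dotted lines at the fold threshold. Foxp4 falls from 1.24 to 0.30 with the GC trend removed, whereas Foxc1 stays at 2.59.

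The other 18 members lay below the filter. Foxd2, a single-exon gene like Foxc1 and Foxc2, had 9, 14 and 7 counts in the Dlx5 libraries and 143 and 297 counts in the Fgfr3 libraries and was called higher in Fgfr3 at the lower filter, with a log2 fold change of 3.09 (adjusted p = 0.00719, edgeR). Foxa3 had no count in the Dlx5 libraries and 174 and 6 counts in the Fgfr3 libraries, at least 37-fold higher against the same floor, and Foxa2 had no count in the Dlx5 libraries and 36 and 0 counts in the Fgfr3 libraries, at least 7.4-fold higher. Both Foxa genes, factors of endoderm and of hypertrophic chondrocytes, thus had nearly all their counts in Fgfr3 replicate 2, the library with the highest chondrocyte marker sum, and both bounds rest on it: in replicate 3 alone Foxa3 was at 2.43 times the floor and Foxa2 at 0. Foxd4 had 0, 7 and 5 counts against 21 and 66 counts, Foxj1 8, 18 and 13 counts against 33 and 53 counts, Foxh1 0, 2 and 6 counts against 6 and 10 counts, and Foxd1 1, 1 and 12 counts against 6 and 2 counts. The remaining 5 members, Foxb1, Foxf1, Foxn4, Foxp3 and Foxr1, had at most 2 counts in any library.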

How the data were processed

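Gene counts were deposited by the authors. Per the submitters' processing notes and the methods, reads of SMART-Seq libraries were aligned to mm10 with TopHat2 2.0.13 and Bowtie2 2.2.1 and counted per gene on an Ensembl annotation; the strand setting is not given in the sources used here. The authors' depth-normalized and rlog tables were not used. Members and lists were chosen with earlier results of these data known. Symbols, lengths and GC content came from GENCODE M21. Counts were tested with edgeR 4.0.16 in R 4.3.3 (quasi-likelihood, TMM), without a block. Standard errors are the log2 fold change divided by the root of the F statistic. Alternatives, DESeq2 1.42.0 among them, are given in the closing section. Named genes were all members passing the filter, members below it with 1 CPM in 2 libraries or 10 counts in any library, and called list members, at most 4 per direction with values; some called list members are not reported here. The test was checked on simulated data.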

Additional observations from a re-analysis of the deposited data

Results flagged for a closer look

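Non-coding rows named after forkhead genes were outside the test. Foxd2os, a transcript beside Foxd2, had 104, 53 and 48 counts in Dlx5 replicates 1, 2 and 3 and 312 and 266 counts in Fgfr3 replicates 2 and 3, or 3.39, 2.5 and 1.91 CPM against 5.07 and 4.2 CPM, above the limit that a count of 0 allows (3 counts) in every library. Foxo6os, antisense to Foxo6, had 28 counts in Fgfr3 replicate 2 and was at 0 in the other libraries. The difference between groups was not tested for either transcript.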

How the results depend on the processing

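Foxc1, Foxo1, Foxk2, Foxo3 and Foxp2 were called in the same direction in all 22 alternatives, and Foxm1 in the 20 in which it was tested; log2 fold changes of Foxc1 ranged from 2.59 to 3.03. Calls for Foxp4, Foxj2 and Foxc2 depended on settings as given above and below. When a library was left out, the filter was first applied again to the other libraries, as planned; Foxm1 and Foxp4 then fell below it without either Fgfr3 library. After that result was seen, a version keeping the genes tested on all libraries was added. In it Foxm1 was called without each library (2.68 to 3.28), and Foxp4 was called without Fgfr3 replicate 2 but not at 0.93 without Fgfr3 replicate 3. Over both versions, forkhead genes called higher in Fgfr3 ranged from 4 to 7 and in Dlx5 stayed at 2, and all genes called higher in Fgfr3 ranged from 997, without Fgfr3 replicate 3, to 1680, without Dlx5 replicate 1, under the reapplied filter and up to 1712 with all tested genes kept, and in Dlx5 from 1029 to 1582; fewer genes were tested under the reapplied filter. Without a fold threshold, 4 forkhead genes were called higher in Dlx5 (with Foxn2 and Foxn3), and 2517 and 2363 of all genes were called higher in Fgfr3 and Dlx5; a test beyond 2-fold called 1011 and 659. When library size alone set the scale, Foxc2 was called (2.41), the median log2 fold change of all genes moved from 0.01 to 0.22, and 66.3% of calls were higher in Fgfr3, against 55.6%; Foxj3 and Foxp1, not called, turned to 0.11 and 0.07. With the GC trend removed, 4 forkhead genes were called higher in Fgfr3 and 2 in Dlx5. Of all genes, 1516 and 1505 were then called, 50.2% of calls higher in Fgfr3, and the median was -0.06. Removing the length trend moved the median to -0.12 and Foxp1 to 0.29 and Foxn3 to -0.11, and leaving out single libraries put Foxj3 between -0.13 (without Fgfr3 replicate 2) and 0.05 (without Fgfr3 replicate 3) under the reapplied filter, and down to -0.21 with all tested genes kept. The causes were not tested. At the lower filter, 2 partner genes of Foxp and Foxk were called higher in Dlx5 in place of 1, with Sin3a, and 5 of 8 lymphoid Foxo targets higher in Fgfr3 in place of 4 of 6, with Rag2. Among markers there, Ikzf1 and C1qb lost their calls, Vpreb1, Cd3d, Acan, Col9a1, Matn3, Matn1 and Comp were called higher in Fgfr3, and Cdh5 and Myh11 higher in Dlx5. The groups share replicate numbers 2 and 3 from separate pools of mice, and deviations correlated at 0.124 and -0.049, so samples were not paired; with a replicate block, 1678 genes were called higher in Fgfr3 and 1382 in Dlx5, with 6 and 2 forkhead genes, Foxc2 in place of Foxj2. With no filter, all 32 members were tested, 9 were called higher in Fgfr3, Foxa3 among them, and 3 in Dlx5, against 2273 and 1711 of all 17092 genes in that fit. The same 6 and 2 forkhead genes were called with the size factors of DESeq2 in edgeR, with the Wald test of DESeq2 and with features of all types tested, where 50.8% of calls were higher in Fgfr3 (1807 against 1752). Members with at most 2 counts in any library lay under the floor of 3 counts.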
